A study of Mus musculus with 10 samples.

Results

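Pyy, Ppy and Npy encode the PP-fold peptides: peptide YY, pancreatic polypeptide and neuropeptide Y. These 3 genes, chosen by name, are 3 of the 27716 genes present in every count matrix of the series, and all 3 were followed in single cells of the embryonic mouse pancreas. The study asked which endocrine cell states exist between E12.5 and E17.5. Here the PP-fold genes are described in those states by level, by share of cells with a transcript, and by the hormone transcripts found beside them in single cells. The data are 8 independent droplet libraries. With version 1 of the 10x Chromium kit, all live cells of wild-type Swiss Webster pancreata were taken, in 1 library of E12.5, 2 of E14.5 and 1 of E17.5. With version 2, 1 Swiss Webster library per stage was made after cells carrying CD140a, a surface marker of mesenchyme, had been removed. At E17.5 that suspension filled 2 wells, which were summed and counted as 1 library. The last library held E14.5 Fev-Cre;ROSA26mTmG cells on a C57BL/6J background, sorted for GFP or TdTomato. In this mouse Fev-Cre turns membrane TdTomato into membrane GFP in cells that have expressed Fev and in their descendants. Embryos were pooled, from 1 litter in all libraries but the E12.5 version 1 library, which pooled 2, so every p-value below measures the spread between pools and not between embryos. For classes this is the spread of the class difference over libraries, most of which also differ in stage, kit, sort or strain. Stage also goes with litter and dissociation time, and these cannot be told apart. The version 1 libraries of E12.5 and E17.5 and the second of E14.5 form 1 batch by the labels, collected apart from the first E14.5 library, while each version 2 stage was done on a day of its own.

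Peptide YY and pancreatic polypeptide are gut and islet hormones, and neuropeptide Y is best known as a neuronal transmitter that is also made by endocrine cells. All of them are cut from a longer precursor by prohormone convertases, amidated at the C terminus, and act on Y receptors, which are coupled to G proteins. In the pancreas pancreatic polypeptide is the product of PP cells, a rare islet cell type, while peptide YY and neuropeptide Y have been described in developing islets beside the main islet hormones.

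In GENCODE vM21 (GRCm38/mm10) Pyy (ENSMUSG00000017311, chr11:102106676-102107832) and Ppy (ENSMUSG00000017316, chr11:102099930-102101319) lie on the minus strand of chromosome 11. The interval between them is 5356 bases. Npy (ENSMUSG00000029819, chr6:49822710-49829507) is on the plus strand of chromosome 6. Each first transcript has 4 exons. The 250 bases before the RefSeq start of each gene (GRCm38.p6) are printed 5′ to 3′ because Pyy and Ppy are neighbours whose levels went together and Npy followed another pattern. Capitals mark TATAA, the core of a TATA box.
Pyy, chr11:102107833-102108082, minus strand: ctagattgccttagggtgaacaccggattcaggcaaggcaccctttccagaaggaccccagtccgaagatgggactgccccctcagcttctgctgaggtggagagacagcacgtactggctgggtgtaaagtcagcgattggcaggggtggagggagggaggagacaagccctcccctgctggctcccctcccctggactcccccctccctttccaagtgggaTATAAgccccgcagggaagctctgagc
Ppy, chr11:102101320-102101569, minus strand: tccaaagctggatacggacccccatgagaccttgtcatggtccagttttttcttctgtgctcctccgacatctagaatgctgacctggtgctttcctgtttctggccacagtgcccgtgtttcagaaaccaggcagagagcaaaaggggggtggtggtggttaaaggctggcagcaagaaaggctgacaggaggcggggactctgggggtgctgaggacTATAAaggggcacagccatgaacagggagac
Npy, chr6:49822460-49822709, plus strand: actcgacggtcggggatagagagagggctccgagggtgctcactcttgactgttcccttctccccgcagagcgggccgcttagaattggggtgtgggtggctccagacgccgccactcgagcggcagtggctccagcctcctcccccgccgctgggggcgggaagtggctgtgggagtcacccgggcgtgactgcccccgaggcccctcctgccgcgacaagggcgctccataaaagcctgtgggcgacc
TATAA began 27 bases before the start in Pyy and 31 bases before it in Ppy, and was absent from the Npy window. On either strand it was found in 22.8% of all 32817 promoter windows of that length. The homeodomain core TAAT was searched on both strands too and was in none of the 3 windows, against 54.9% of all windows. GC content was 61.2% for Pyy, 55.2% for Ppy and 69.2% for Npy. RefSeq also lists a second, downstream start for Pyy, whose window overlaps the one shown. These are descriptions of letters in a window and not of binding.

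Total UMIs, the counted transcript molecules, ran from 15671934 to 127151679 per matrix. Endocrine cells were clustered with the 3 PP-fold genes left out of the clustering, and 7439 endocrine cells entered the description, 105 to 2669 per library. By their markers 1876 were alpha-like, 1516 beta-like, 290 delta-like, 320 epsilon-like, 1527 Fev+-like, 1152 Ngn3+-like and 109 cycling, and 649 stayed unnamed. Ngn3+-like and Fev+-like cells are the progenitor states that precede hormone cells. Gcg, which encodes glucagon, and Sst, which encodes somatostatin, were among the markers that named the classes. Their levels are therefore no check of the names. Gcg was at 38804 to 96113 CPM (UMIs per 1000000 UMIs of the class) in alpha-like cells, and Sst at 7470 to 124526 CPM in delta-like cells. Erythrocyte RNA differed widely between libraries, with haemoglobin genes taking 0.0128% of UMIs in the Fev-Cre library and 60.9% in the E17.5 version 1 library. For each pair of wells of the same kit, 0.433% to 1.79% of the cell barcodes of the smaller well were shared. The part of either value in the results was not tested.

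Pyy was detected in every endocrine class and was highest in delta-like cells, which make somatostatin, with alpha-like cells, which make glucagon, next by the mean over libraries. In the 4 libraries with at least 10 delta-like cells it stood at 62244 CPM (E14.5 version 2), 70561 CPM (E17.5 version 1), 57052 CPM (E17.5 version 2) and 32235 CPM (Fev-Cre), a mean of 55523 ± 16492 (SD, n = 4). Alpha-like cells had a lowest value of 8937 CPM in the Fev-Cre library, a median of 22051 and a highest value of 35938 in the E14.5 version 2 library (mean 22825 ± 8777, SD, n = 8). Delta-like cells were above alpha-like cells of the same library in 4 of 4 libraries, although the ranges of the libraries overlapped. Epsilon-like cells, which make ghrelin, averaged 11404 ± 5862 CPM (SD, n = 7) and beta-like cells 6101 ± 3425 (SD, n = 6), and the SDs of these classes overlap. The Fev-Cre library had another order below delta-like cells, with 14611 CPM in epsilon-like, 8949 in beta-like and 8937 in alpha-like cells, and alpha-like were above epsilon-like cells in 2 of the 3 libraries with sums of both. Epsilon-like cells of the Fev-Cre library were mixed, with 8034 CPM of Gcg beside 9538 CPM of Ghrl, which encodes ghrelin. In the other libraries with at least 10 such cells, Gcg was at 18.9 to 75.2 CPM and Ghrl at 9866 to 84721 CPM. Beta-like cells ran from 999 CPM in the E17.5 version 2 library to 9102 in the E14.5 version 2 library. In the progenitor states Fev+-like cells averaged 3778 ± 3177 CPM and Ngn3+-like cells 471 ± 553 (SD, n = 8 for both). These levels came from few cells. In the Swiss Webster version 2 libraries the 10% of Ngn3+-like cells with most Pyy held 95.3% to 97.4% of its UMIs. In Fev+-like cells that share was 54.5% to 91.4% by library. The 2 wells of the E17.5 version 2 suspension gave 1375 and 24.4 CPM in Ngn3+-like cells.

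Ppy was far lower than Pyy, with its highest means in the same 2 classes. In delta-like cells it reached 3355 CPM (E14.5 version 2), 5891 CPM (E17.5 version 1), 4151 CPM (E17.5 version 2) and 725 CPM (Fev-Cre), a mean of 3531 ± 2149 (SD, n = 4). Alpha-like cells ran from 216 CPM (Fev-Cre) to 2181 CPM (E17.5 version 1), with a mean of 958 ± 786 (SD, n = 8). Most Ppy UMIs of a class came from few cells. The 10% of cells with most Ppy held 65.7% to 88.2% of them in alpha-like cells by library, and 61.7% to 86.7% in delta-like cells. In the first E14.5 version 1 library a single beta-like cell held 49 of 65. Delta-like cells were above alpha-like cells in each of the same 4 libraries, and the ranges overlapped across libraries. Below them came epsilon-like cells at 224 ± 143 CPM (SD, n = 7), beta-like cells at 181 ± 105 (SD, n = 6), Fev+-like cells at 72.3 ± 90.6 and Ngn3+-like cells at 34.4 ± 55.7 (SD, n = 8 for both). The SDs of neighbours in this lower order overlap, although the paired test given below called Ppy between beta-like and Fev+-like cells. In the Fev-Cre library epsilon-like cells, at 355 CPM, were above alpha-like cells.

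Npy was highest in beta-like cells, which make insulin. Over 6 libraries its level in beta-like cells had a lowest value of 887 CPM in the Fev-Cre library and a highest of 2225 CPM in the E14.5 version 2 library, a mean of 1682 ± 515 (SD, n = 6). No library with at least 10 cells of both classes had more Npy in alpha-like than in beta-like cells. The 8 beta-like cells of the E12.5 version 2 library, too few for the mean, held 69 Npy UMIs (1381 CPM). Delta-like cells held 0 to 9.80 CPM and epsilon-like cells 0 to 5.23 CPM. In alpha-like cells the values spread from 0 CPM (E17.5 version 1) to 531 CPM (second E14.5 version 1 library), with a mean of 136 ± 215 (SD, n = 8). That mean came from few cells: of 579 Npy UMIs in 1876 alpha-like cells, 443 lay in 13 cells with 5 or more, and all 13 also held an insulin UMI. Insulin UMIs were common in alpha-like cells of some libraries, since 0 of 414 in the E17.5 version 2 library and 5 of 771 in the Fev-Cre library had none. In the E14.5 version 1 libraries, where 47 of 64 and 60 of 76 alpha-like cells had none, the cells with 5 or more Npy UMIs numbered 2 and 3. In the 391 alpha-like cells without an insulin UMI there were 16 Npy UMIs in all, at 0 to 20.7 CPM per library.

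**Figure D1:**
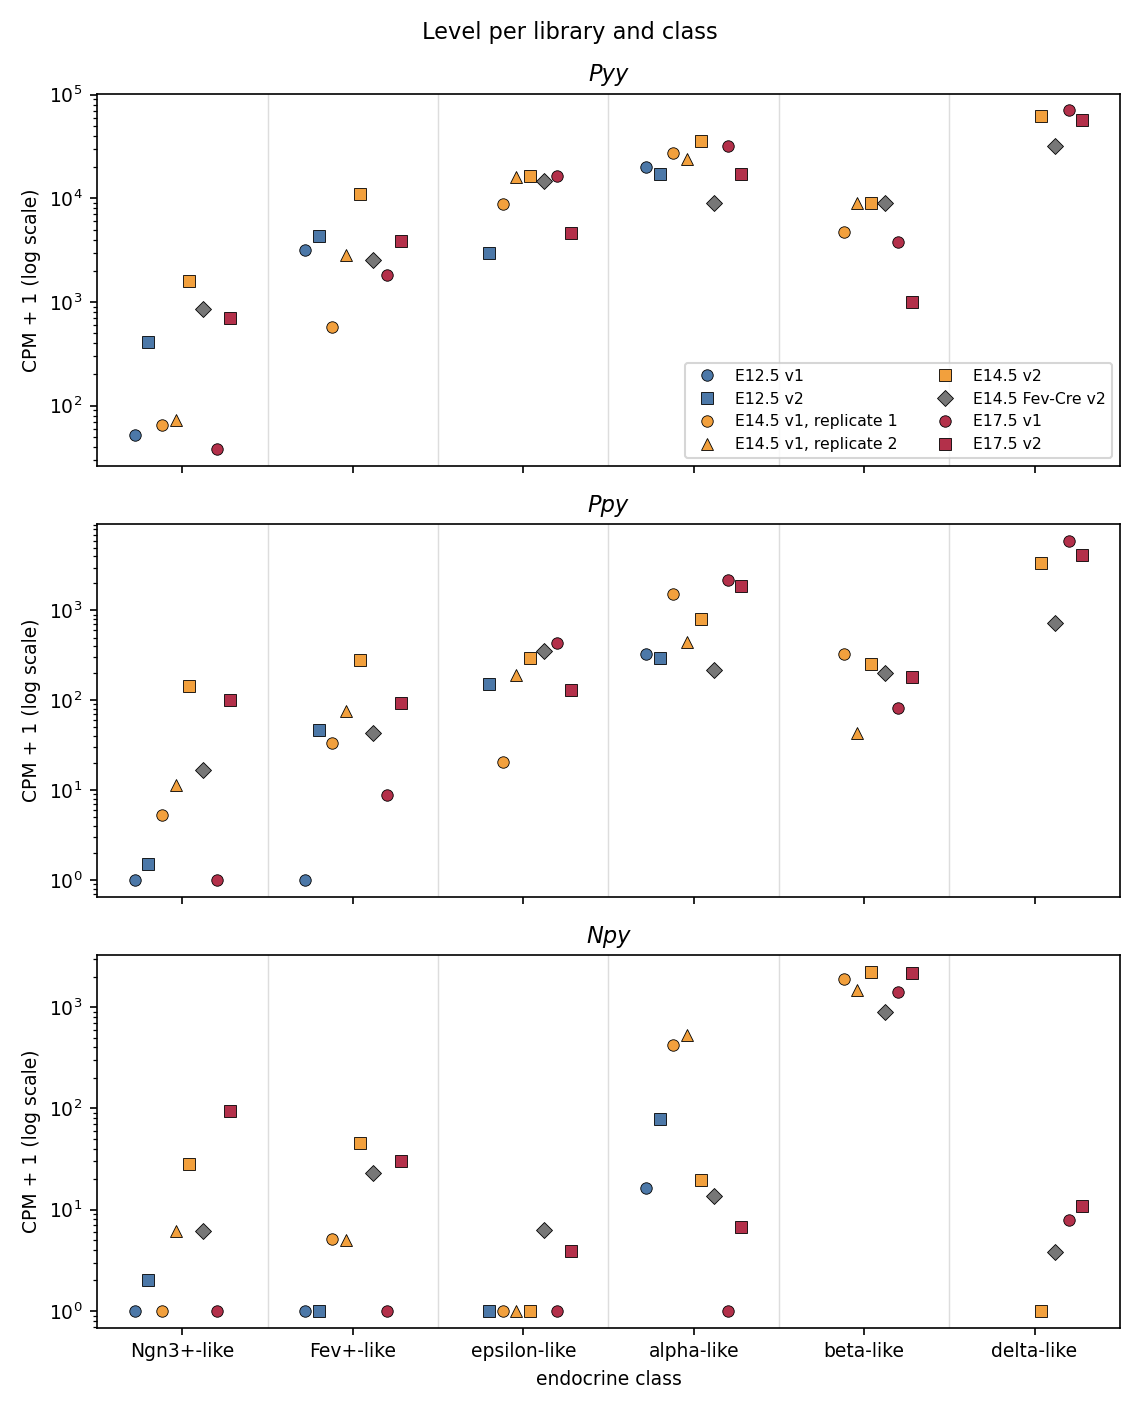
Level of Pyy, Ppy and Npy (CPM + 1, log axis) in 6 endocrine classes, with 1 point per library that had at least 10 cells of the class. Pyy and Ppy had their highest means in delta-like and alpha-like cells, and Npy in beta-like cells, where the 6 libraries ran from 887 to 2225 CPM.

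The class comparisons were tested with edgeR on the summed UMIs of a class in a library, the library being a block, and p-values adjusted over all 7722 genes tested; a call needed an adjusted p under 0.05 and a 2-fold change. The 3 genes passed the low-count filter in every comparison reported here. All alpha-like comparisons share the alpha-like sums. Between alpha-like and beta-like cells all 3 genes were called, where 8.12% of all genes were. Pyy was higher in alpha-like cells in 5 of 6 libraries, and in the Fev-Cre library the ratio was 0.999. Its log2 fold change was 1.95 ± 0.48 (SE, adjusted p = 0.0026). Ppy was higher in alpha-like cells in 6 of 6 libraries, by 1.08-fold to 26.7-fold, with a log2 fold change of 2.26 ± 0.50 (SE, adjusted p = 0.0009). Npy was lower in alpha-like cells in 6 of 6 libraries, with a log2 fold change of -4.35 ± 0.72 (SE, adjusted p = 1.75e-05), a fit that holds an alpha-like sum of 0 UMIs in the E17.5 version 1 library and so gives no bound. Without the library block Pyy and Ppy were no longer called, at log2 fold changes of 1.80 (adjusted p = 0.069) and 2.12 (adjusted p = 0.085).

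The delta-like class stood above alpha-like cells in each library that had both, but none of the 3 genes was called between them in the fit over all classes, where 5.91% of genes were. The log2 difference of alpha-like from delta-like cells was -1.03 ± 0.53 for Pyy (SE, adjusted p = 0.236) and -1.39 ± 0.53 for Ppy (SE, adjusted p = 0.0897). In a fit over these 2 classes alone both were called, at -1.43 (adjusted p = 3.3e-06) and -1.65 (adjusted p = 1.3e-07). Beta-like cells were lower than delta-like cells in Pyy by a log2 fold change of -2.99 ± 0.58 (SE, adjusted p = 0.000265) and in Ppy by -3.64 ± 0.57 (SE, adjusted p = 1.21e-05). Of all genes 8.59% were called in this comparison. Npy was at 887 to 2225 CPM in beta-like cells of the 4 libraries and at 0 to 9.80 in delta-like cells, whose sums held 1, 0, 14 and 1 UMIs. It passed the count filter through sums other than the delta-like ones, so its call is no result of the test. In the E17.5 version 2 library, the one with more than 3 UMIs in both sums, it was 221-fold higher in beta-like cells. Between alpha-like and epsilon-like cells none was called, where 4.44% of genes were: the log2 fold change was 1.58 ± 0.65 for Pyy (SE, adjusted p = 0.124) and 1.82 ± 0.67 for Ppy (SE, adjusted p = 0.0789). Without the Fev-Cre library both were called, on the epsilon-like sums of E14.5 version 2 (60 cells) and E17.5 version 2 (36 cells) alone. Both were also called with class sums of at least 10 cells. Epsilon-like cells of the Fev-Cre library held 8034 CPM of Gcg, and the part of this was not tested. Npy in epsilon-like cells held 0 UMIs in 6 libraries and 1 and 7 in the others, so no fold of it is given.

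Hormone classes were then set against the progenitor states. Against Fev+-like cells, where 7.51% of genes were called, alpha-like cells had more Pyy in 8 of 8 libraries, by 3.24-fold to 47.3-fold, and more Ppy in 8 of 8. The Ppy ratio was 2.81-fold to 47.1-fold in the 6 libraries with more than 3 Ppy UMIs in both sums. In the other 2, Ppy stood at 330 CPM against 0 (E12.5 version 1) and at 2181 CPM against 7.83 (E17.5 version 1). The log2 fold changes were 3.07 ± 0.45 for Pyy (SE, adjusted p = 2.98e-06) and 3.67 ± 0.51 for Ppy (SE, adjusted p = 1.09e-06). The fit also called Npy higher in alpha-like cells, at 2.10 ± 0.79 (SE, adjusted p = 0.0424), but by library it was higher in 4 and lower in 3 of 8, and the value fell to 1.06 without the second E14.5 version 1 library, to 1.46 without the first, and to 0.37 in the version 2 libraries alone. The call was also lost without either E12.5 library or the E17.5 version 1 library. Against Ngn3+-like cells, where 22.4% of genes were called, alpha-like cells had more Pyy in 7 of 7 libraries, by 10.6-fold to 423-fold (log2 fold change 5.70 ± 0.55, SE, adjusted p = 1.15e-10). Ppy was higher in 7 of 7 too, by 5.51-fold to 18.8-fold in the 3 libraries with more than 3 UMIs in both sums, and the Ngn3+-like sums of the other 4 held 0 to 2 UMIs. These folds rest on few cells, since a single Ngn3+-like cell held 199 of 232 Ppy UMIs (E14.5 version 2) and 64 of 65 (E17.5 version 2). Npy was higher in 5 and lower in 2 of the 7 libraries: it was at 18.8 CPM in alpha-like against 27.4 in Ngn3+-like cells in the E14.5 version 2 library, and at 5.77 against 93.2 in that of E17.5. In these 2 Ngn3+-like sums a single cell held 38 of 44 and 58 of 61 Npy UMIs. The fit called Npy higher (2.15 ± 0.83, SE, adjusted p = 0.0276), with Ngn3+-like sums of 0 to 2 UMIs in 4 libraries, but the value was 0.03 in the version 2 libraries alone, and the call was lost without either E14.5 version 1 library (1.49 and 1.22) or the E12.5 version 2 library (1.58). Against Fev+-like cells, beta-like cells were higher in Npy in 6 of 6 libraries, where 8.75% of genes were called. The ratio was 40.1-fold to 73.5-fold in the 3 libraries with more than 3 Npy UMIs in both sums. In their Fev+-like sums a single cell held 23 of 49 (E14.5 version 2), 54 of 66 (E17.5 version 2) and 39 of 98 Npy UMIs (Fev-Cre). The Fev+-like sums of the other 3 held 0, 1 and 2 UMIs, so the fitted fold is not given. In the same comparison Ppy and Pyy were each higher in beta-like cells in 4 and lower in 2 of 6 libraries. For Ppy the fit gave 1.42 ± 0.53 (SE, adjusted p = 0.0401), a call that was lost without the first E14.5 version 1, the E17.5 version 2 or the Fev-Cre library. For Pyy it gave 1.11 ± 0.47 (SE, adjusted p = 0.0730), which did not pass; it was called without the E17.5 version 2 library (1.42) and gave -0.34 in the version 2 libraries alone.

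To compare the share of cells with a transcript, each cell was thinned to 2000 UMIs, which 7365 of the 7439 cells reached. Median depth before thinning was 2998 to 10106 UMIs in alpha-like and 3724.5 to 21316.5 in beta-like cells. Pyy was then found in 98.2% ± 2.18 of delta-like cells (SD, n = 4), 95.8% ± 3.03 of alpha-like cells (SD, n = 8), 73.0% ± 15.0 of epsilon-like cells (SD, n = 6) and 70.4% ± 17.8 of beta-like cells (SD, n = 6). Among beta-like cells the Swiss Webster libraries gave 66.7%, 81.1% and 85.1% at E14.5 and 53.1% and 46.6% at E17.5, and the Fev-Cre library 89.8%; the difference in share between stages was not tested. Ppy was found in 37.3% ± 11.5 of delta-like and 27.7% ± 10.2 of alpha-like cells (SD, n = 4 and n = 8), and in 12.1% ± 3.81 of beta-like cells (SD, n = 6). Npy was found in 36.2% ± 11.1 of beta-like cells (SD, n = 6), 2.10% ± 1.79 of alpha-like cells (SD, n = 8) and 0.895% of Fev+-like cells. In delta-like cells 3 of the 4 libraries had no cell with Npy, which allows a share of up to 10.0% in the 30 cells of the E14.5 version 2 library, for counting error only. That limit is on cells with an Npy UMI at this depth, not on cells that express Npy.

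Mesenchymal cells, which should lack these hormones, were taken as background. Free RNA, doublets (droplets with several cells) and misassigned cells were not told apart in them. Their median depth was 2372 to 10989 UMIs. Pyy was found in 1.61% to 12.4% of them in the 7 Swiss Webster libraries and in 38.3% in the Fev-Cre library, and acinar-like and immune cells of the Fev-Cre library gave 38.5% and 41.9%. Ppy and Npy in mesenchymal cells averaged 0.436% and 0.492%. In the Fev-Cre library 40.5% of Ngn3+-like cells held Pyy, a share in the range of these background cells. Their level was 847 CPM, against 261 CPM in mesenchymal, 366 in acinar-like and 1133 in immune cells of that library, and 76.1% of their Pyy UMIs lay in the 10% of cells with most Pyy. Npy in the delta-like and epsilon-like classes lay at background, at means of 0.156% and 0.198%. The Pyy shares of delta-like and alpha-like cells, the Ppy shares of delta-like, alpha-like and beta-like cells and the Npy share of beta-like cells lay above the mesenchymal share.

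**Figure D2:**
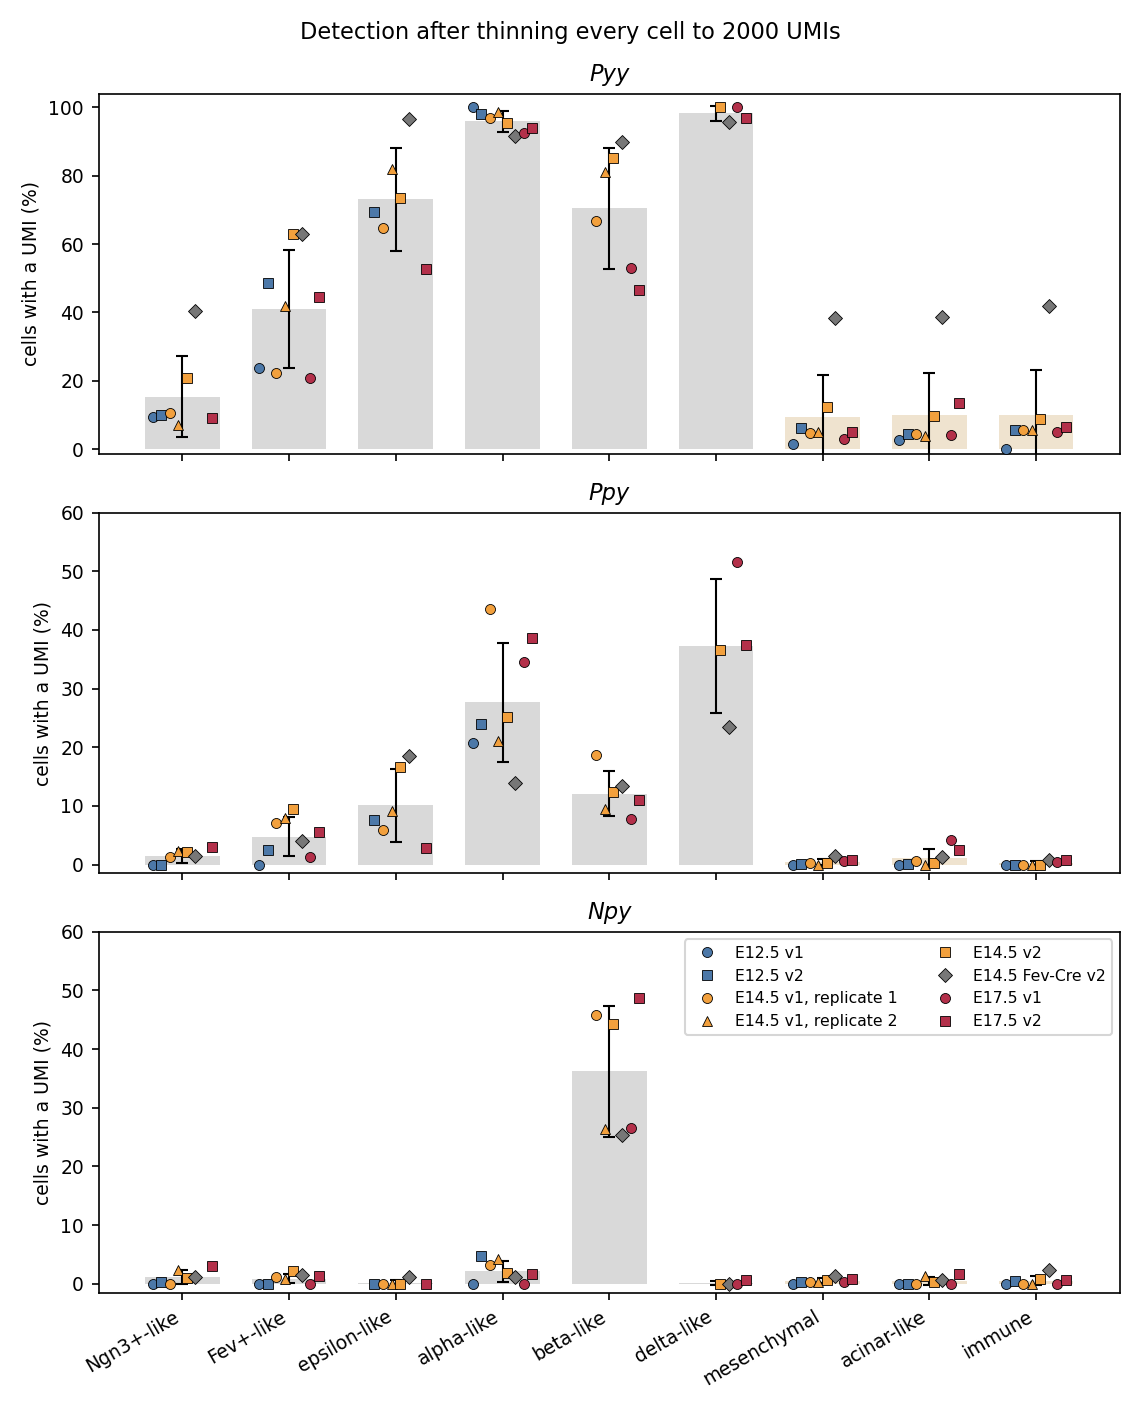
Share of cells (%) with at least 1 UMI of Pyy, Ppy or Npy after each cell was thinned to 2000 UMIs, by class; bars are the mean and error bars the SD over libraries, points are libraries, and tan bars are the cells that give the background. Pyy stood at 95.8% in alpha-like and 98.2% in delta-like cells, and the highest background points, 38.3% to 41.9%, belong to the Fev-Cre library.

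Stages were compared within a class over the Swiss Webster libraries, with the kit as a term. A fit with the batch as a replicate block (version 1 batch 1, version 1 batch 2, version 2) was added after the data were seen, and its values are given where it changed a call. In it the first E14.5 version 1 library, the only library of batch 1, no longer bears on the stage difference, which leaves 2 residual degrees of freedom for alpha-like and Fev+-like cells and 1 for beta-like cells. Different clusters held a class at different stages with version 2, so these differences are also differences between clusters: alpha-like cells fell mostly in cluster 8 (E12.5), cluster 9 (E14.5) and cluster 2 (E17.5), and beta-like cells in cluster 13 (E14.5) and cluster 0 (E17.5). Version 1 alpha-like cells were all in cluster 0. Fev+-like cells of version 2 were mostly cluster 4 at E12.5 and E14.5 and cluster 6 at E17.5.

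Ppy in alpha-like cells was at 330 and 295 CPM in the E12.5 libraries (versions 1 and 2), at 1535, 444 and 797 CPM in those of E14.5 (first and second version 1 libraries, then version 2), and at 2181 and 1865 CPM in those of E17.5 (versions 1 and 2). Both E12.5 libraries lay under all E14.5 libraries, and both E17.5 libraries above them. In each of these libraries the 10% of alpha-like cells with most Ppy held 65.7% to 88.2% of its UMIs, so these levels rest on few cells. The E12.5 difference from E14.5 was called, at a log2 fold change of -1.42 ± 0.39 (SE, adjusted p = 0.0422), where 3.71% of genes were called, and the call was lost without either E12.5 library, the first E14.5 version 1 library (-0.94) or the E14.5 version 2 library. The E17.5 difference of 1.34 ± 0.36 was not called (SE, adjusted p = 0.0992), where 0.919% of genes were, but was called without the first E14.5 version 1 library (1.79) or the E12.5 version 1 library (1.28). With the batch block the E12.5 difference was not called, at -0.93 ± 0.33 (SE, adjusted p = 0.133), and the E17.5 difference was, at 1.83 ± 0.33 (SE, adjusted p = 0.0112). Within version 1 batch 2 alone the levels were 330, 444 and 2181 CPM from E12.5 to E17.5, and within version 2 they were 295, 797 and 1865. The 2 wells of the E17.5 version 2 suspension differed too, at 2382 and 1313 CPM of Ppy.

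Pyy in alpha-like cells showed no called change with stage, at a log2 fold change of -0.55 ± 0.39 for E12.5 (SE, adjusted p = 0.495) and -0.11 ± 0.39 for E17.5 (SE, adjusted p = 0.957) against E14.5. In data simulated for alpha-like cells at E17.5 against E14.5, 1.05% of 2-fold and 45.1% of 4-fold changes were called, so a missed call is no sign of an equal level. In beta-like cells Pyy was at 4719, 9006 and 9102 CPM in the E14.5 libraries against 3831 (version 1) and 999 CPM (version 2) in those of E17.5. Both E17.5 values lay below the E14.5 values, and the log2 fold change of -1.25 ± 0.52 was not called (SE, adjusted p = 0.390), where 0.617% of genes were. Without the E17.5 version 1 library it was called, at -2.55 (adjusted p = 0.021). With the batch block it was called lower at E17.5, at -1.65 ± 0.42 (SE, adjusted p = 0.00379), and the pairs were 9006 and 3831 CPM in version 1 batch 2 and 9102 and 999 CPM in version 2. That fit called 201 genes in all, against 30. Npy in beta-like cells was at 1919, 1490 and 2225 CPM at E14.5 and 1408 and 2164 CPM at E17.5, which overlap (log2 fold change 0.37 ± 0.32, SE, adjusted p = 0.717). Ppy in beta-like cells gave -0.15 ± 0.56 (SE, adjusted p = 0.944). The gap between alpha-like and beta-like cells was then compared between stages and between kits, in a test added after the data were seen. It was wider at E17.5 than at E14.5 for Pyy, by 1.20 ± 0.27 on the log2 scale (SE, adjusted p = 0.0215), where 1.12% of genes were called. For Ppy the same difference was 1.18 ± 0.37 and was not called (SE, adjusted p = 0.156). Between kits Pyy (0.33) and Ppy (-1.19) were not called, while Npy was, where 0.0439% of genes were called. Each of these calls was lost without some single library.

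Npy in alpha-like cells was called lower at E17.5, at a log2 fold change of -4.16 ± 0.99 (SE, adjusted p = 0.0463), with 0 and 5.77 CPM at E17.5 against 426, 531 and 18.8 CPM at E14.5. The version 1 values at E14.5 came from 2 and 4 cells, with 82 and 140 UMIs in single cells. The call was lost without the second E14.5 version 1 library or the E17.5 version 2 library, and with the batch block (-4.02 ± 1.08, SE, adjusted p = 0.0944). In Fev+-like cells Ppy was called lower at E12.5 than at E14.5, at -2.79 ± 0.50 (SE, adjusted p = 0.0257), where 0.369% of genes were called. The values were 0 and 45.9 CPM at E12.5 against 32.6, 74.8 and 283 CPM at E14.5, so the groups overlapped across kits, and the call was lost without either version 2 library of those stages. Pyy was not called in Fev+-like cells, with log2 fold changes of -0.01 ± 0.59 for E12.5 (SE, adjusted p = 1.00) and -0.57 ± 0.58 for E17.5 (SE, adjusted p = 0.890; 0.431% of genes called). Ppy at E17.5 (-1.79 ± 0.39, SE, adjusted p = 0.0724) and Npy at E12.5 (adjusted p = 0.0809) were not called either, but with the batch block Ppy at E17.5 was called lower (-1.83 ± 0.35, SE, adjusted p = 0.0295). Both E12.5 libraries held 0 Npy UMIs in this class, so that fold has no bound, and it was called without the E17.5 version 1 library.

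The transcripts found together in a cell were then counted. For each library an odds ratio compared how often a hormone transcript was found in cells with and without the PP-fold transcript, at 2000 UMIs. The partners were also found in cells that should lack them: Gcg was found in 1.504% to 38.1% of mesenchymal cells by library, Ins1 in 0% to 40.6% and Sst in 0% to 3.44%, the highest of Gcg in the Fev-Cre library and of Ins1 in E17.5 version 2. Acinar-like cells reached 34.1%, 73.4% and 7.26%, and immune cells 34.9%, 44.1% and 3.20%. With 5 UMIs asked for, the highest shares of Gcg, Ins1 and Sst were 0.154%, 0.358% and 0% in mesenchymal, 1.46%, 5.78% and 0.0967% in acinar-like and 0.14%, 0.686% and 0.775% in immune cells. The ratios are therefore also given at 5 UMIs of both transcripts. These background shares were added after the data were seen. Doublets of endocrine cells of different classes also give double positives. The removal of cells with markers of more than 1 compartment does not find them, and their part was not told apart. Pyy went with Ppy in all 8 libraries, with an odds ratio from 8.53 to 167 (median 15.0), and 877 of 934 cells with Ppy also held Pyy. Pyy also went with Gcg in 8 of 8 libraries (median 6.07, and 26.8 at 5 UMIs) and with Sst in 8 of 8 (median 6.35, and 18.3 at 5 UMIs). The E12.5 libraries held 1 and 2 cells with Sst in all, so their ratios with Sst, for Pyy and for Ppy, rest on these and on the 0.5 added to each count. With Ins1, an insulin gene, the odds ratio was above 1 in 6 of 8, with a median of 2.30, and at 5 UMIs in 5 of 7, with a median of 1.59. Ppy went with Gcg (median 3.14) and Sst (median 4.55) in 8 of 8 libraries, and at 5 UMIs with Gcg in 7 of 8 (median 4.38) and with Sst in 8 of 8 (median 10.99). The odds ratio of Ppy with Ins1 was above 1 in 7 of 8 libraries (median 1.61), but at 5 UMIs in 3 of 7 (median 0.937), so its direction turned with the number of UMIs asked for. Npy was found mostly beside Ins1: 623 of 669 cells with Npy held Ins1, and the odds ratio ran from 11.1 to 171 (median 44.7) in the 7 libraries that had both, and 321 of 327 cells did so at 5 UMIs (median 207). Of the same 669 cells 152 held Gcg (median odds ratio 0.805) and 27 held Sst (median 0.794). Of the 3 libraries whose ratio with Sst was above 1, 2 had no cell with both transcripts, so that value comes from the 0.5 added to each count.

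**Figure D3:**
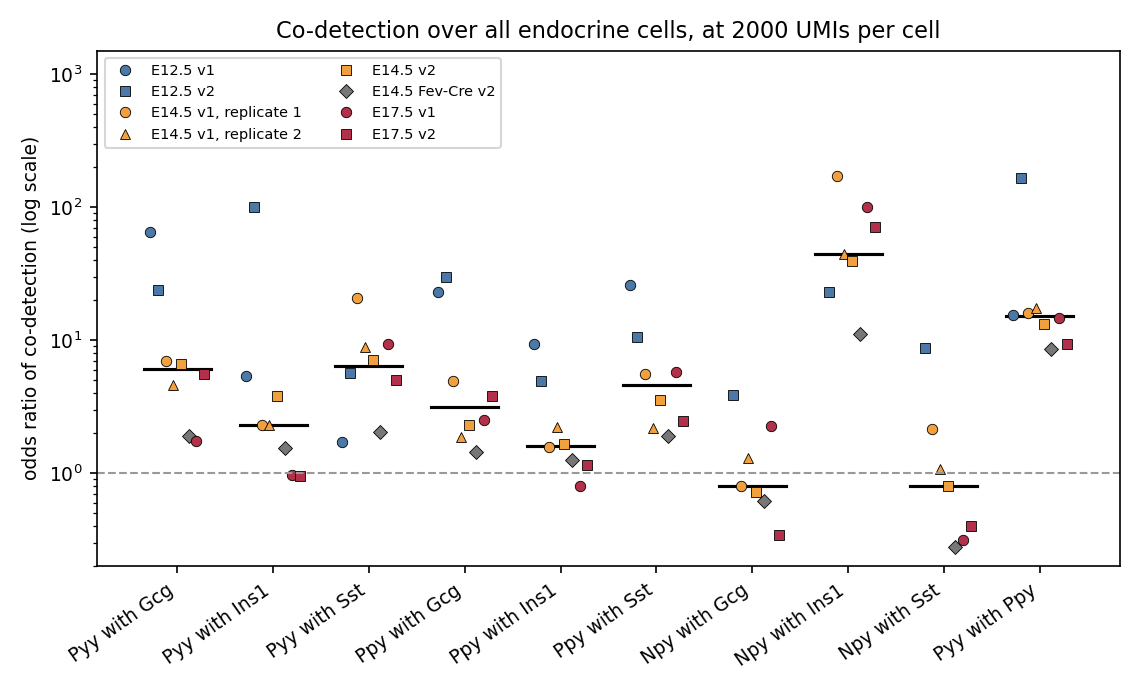
Odds ratio of finding a pair of transcripts in the same endocrine cell at 2000 UMIs (log axis), 1 point per library, with the median as a black bar and 1 as a dashed line. Npy with Ins1 and Pyy with Ppy had the highest medians, 44.7 and 15.0.

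These ratios mix differences between classes with those inside a class, so they were repeated within classes. Within beta-like cells Npy still went with Ins1 in 6 of 6 libraries (median 11.4), and 548 of 556 cells with Npy held Ins1. In the version 1 and E14.5 version 2 libraries Ins1 was also in 46.2% to 82.4% of beta-like cells without Npy. There 0 or 1 cell with Npy lacked Ins1, so these ratios rest on few cells. Within beta-like cells the odds ratio of Pyy with Npy was below 1 in 5 of 6 libraries (median 0.600), as was that of Pyy with Ins1 in 5 of 6 (median 0.656), while Pyy and Ppy went together in 6 of 6 (median 3.29). Within alpha-like cells Pyy went with Gcg in 6 of 7 libraries (median 2.37), although most libraries had few alpha-like cells without Pyy. The odds ratio of Pyy with Sst was below 1 there in 4 of 5 (median 0.248). Over all libraries, however, 45 of 47 alpha-like cells with Sst also held Pyy. In the first E14.5 version 1 library and the version 2 libraries of E12.5 and E14.5, every such cell held Pyy. Their ratios below 1 come from the constant added to each count and show no avoidance of Pyy. In the E17.5 version 2 library 28 cells with Sst held Pyy and 2 lacked it (odds ratio 0.741). Ppy went with Gcg in 6 of 8 libraries within alpha-like cells (median 1.35). Within delta-like cells the ratio of Ppy with Gcg was below 1 in 4 of 4 (median 0.730), on 11 cells with both transcripts. The E14.5 version 2 library had 1 delta-like cell with Gcg. In the E17.5 version 1 library 1 cell with Ppy and 1 without it held Gcg (odds ratio 0.939). The direction within delta-like cells therefore rests on few cells and is not established. Ppy went with Sst in 4 of 6 libraries within alpha-like (median 2.96) and 2 of 3 within delta-like cells (median 1.31). Of delta-like cells 98.2% held Pyy, which leaves too few without it for such a comparison.

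The 2 beta-like clusters of the Fev-Cre library separated Pyy from Npy. The 158 cells of cluster 7, with 40030 CPM of Ins1, held 2423 CPM of Npy, 5145 of Pyy and 97.5 of Ppy. The 420 cells of cluster 1, with 6614 CPM of Ins1, held 151 CPM of Npy, 10770 of Pyy and 249 of Ppy. Npy was thus higher, and both Pyy and Ppy lower, in the cluster with more Ins1. Clusters of 1 library are no replicates, and this was given no test.

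Pyy was also often the leading hormone transcript of a cell. Of 4338 endocrine cells with at least 10 UMIs over 7 hormone measures (Gcg, Ins1 plus Ins2, Sst, Ghrl, Pyy, Ppy and Npy) after thinning, Pyy led in 1309 (30.2%), Ppy in 7 and Npy in 1. Insulin led in 1429 and Gcg in 1254, and 53 cells lay within 1 UMI of another order. Pyy led in 147 of 278 delta-like cells (52.9%), in 249 of 371 Fev+-like cells that reached the 10 UMIs (67.1%), in 429 of 1695 alpha-like cells (25.3%) and in 197 of 1429 beta-like cells (13.8%). Of the 7365 endocrine cells at this depth 4338 reached the 10 UMIs. They were 371 of 1508 Fev+-like, but 278 of 285 delta-like and 1695 of 1854 alpha-like cells. Pyy itself counts toward the 10 UMIs, so the Fev+-like share describes the cells that reached them and not the class. The libraries differed strongly: among delta-like cells Pyy led in 41 of 44 in the Fev-Cre library, 22 of 30 in E14.5 version 2, 11 of 33 in E17.5 version 1 and 60 of 157 in E17.5 version 2. Among beta-like cells it led in 133 of 522 in the Fev-Cre library and in 0 of 554 in E17.5 version 2. Among epsilon-like cells it led in 126 of 265 (47.5%), and 93 of these 126 lay among the 148 such cells of the Fev-Cre library. In that library Ghrl led in 29 of the 148 and Gcg in 25. Without that library Pyy led in 28.2% of epsilon-like, 45.3% of delta-like, 60.8% of Fev+-like, 27.2% of alpha-like and 7.06% of beta-like cells. The shares over all libraries are therefore weighted by the cells each gave.

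**Figure D4:**
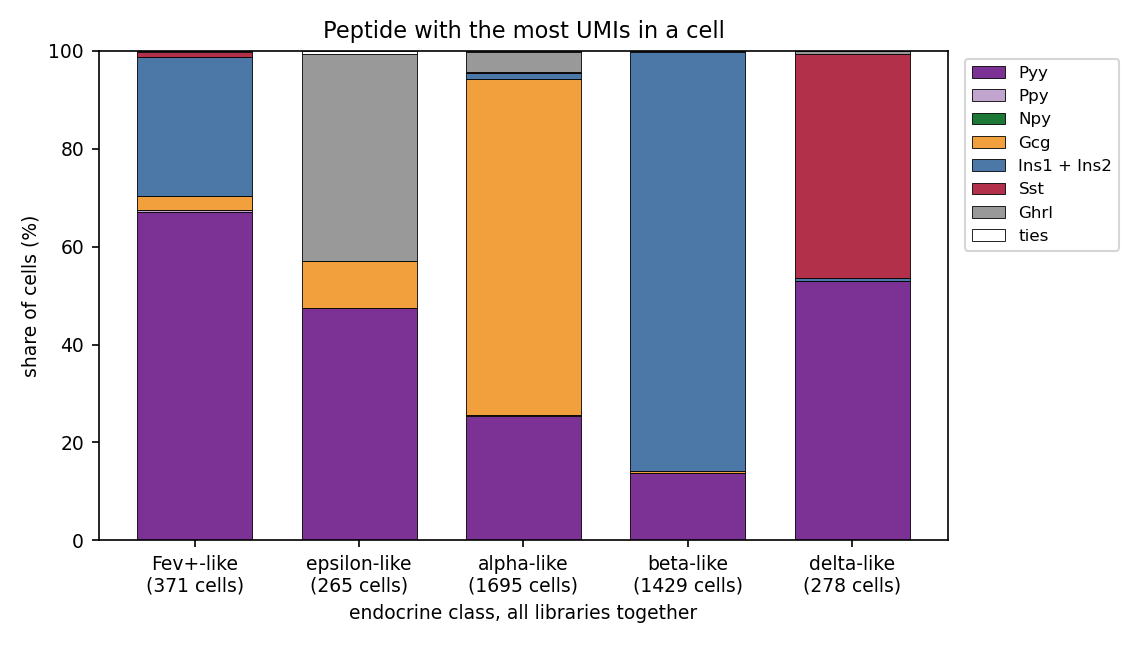
Share of cells (%) led by each hormone transcript in 5 endocrine classes, over all 8 libraries, among cells with at least 10 UMIs of these hormones at 2000 UMIs per cell. Pyy led in 52.9% of delta-like and 13.8% of beta-like cells. Of 1508 Fev+-like cells at this depth 371 reached the 10 UMIs and are shown.

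Across the 36 sums of at least 20 cells, the genes whose log2(CPM + 10) ran most like Pyy among 8090 genes were Rbp4, which encodes the plasma carrier of retinol (Pearson's r = 0.946), Tmem27 (0.874), Lgals3bp (0.871), Pam (0.866) and Resp18 (0.859). Those most like Ppy were Pyy (0.851), Rbp4 (0.791), Scg2 (0.788), Slc16a10 (0.785) and Spock1 (0.784). Those most like Npy were Bace2 (0.909), Trpm5 (0.875), Zc3h3 (0.871), Slc2a2, the glucose transporter of beta cells (0.867), and G6pc2 (0.863). The r of Npy was 0.849 with Ins1 and 0.123 with Pyy, while Pyy had 0.454 with Gcg, 0.443 with Sst and 0.692 with Iapp. The sums share libraries, depth and classes, and genes other than the 3 took part in the clustering, so these values describe the sums and carry no test. Rbp4, Tmem27, Slc2a2, G6pc2, Ins1, Gcg, Sst and Iapp were also among the markers that named the classes.

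The machinery around the peptides was followed in a list of 18 genes for processing enzymes, Y receptors and extracellular peptidases, of which 9 had enough counts for the class comparisons. These genes were not left out of the clustering, so their values are a description. Between alpha-like and beta-like cells, where 8.12% of all genes were called, 2 were higher, 1 was lower and 6 did not pass, with a list median of 0.01 on the log2 scale against 0.03 for all genes. Dpp4, a peptidase that trims peptide YY and neuropeptide Y, was at 92.7 ± 21.3 CPM in alpha-like and 16.6 ± 12.2 in beta-like cells (SD; log2 fold change 2.71). Pam, the amidating enzyme, was at 508 ± 115 CPM in alpha-like, 421 ± 54.7 in delta-like and 201 ± 60.8 in beta-like cells (log2 fold change of alpha-like from beta-like 1.27). Pcsk1, a prohormone convertase, was the lower one, at 90.5 ± 35.6 CPM in alpha-like and 321 ± 79.3 in beta-like cells (log2 fold change -1.98). Pcsk2, the other main convertase, was at 1269 CPM in alpha-like and 1338 in beta-like cells. Alpha-like cells were higher in 7 of 9 than Ngn3+-like cells (22.4% of all genes called), higher in 5 of 9 than epsilon-like cells (4.44% called), and higher in 3 and lower in 1 than Fev+-like cells (7.51% called).

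Y receptor transcripts were scarce. Npy1r was found with 71 UMIs in 64 of 1527 Fev+-like cells, in 8 of 8 libraries (10.9 ± 7.18 CPM, SD, n = 8), with 78 UMIs in alpha-like cells (4.17 ± 4.78 CPM) and with 114 UMIs in 16456 mesenchymal cells. Npy2r gave 45 UMIs in mesenchymal cells, 1 in Fev+-like cells and 0 in alpha-like, beta-like and delta-like cells. Npy4r, the receptor that prefers pancreatic polypeptide, gave 1 UMI, and Npy5r 1 UMI in alpha-like cells. No test between classes was made for these receptors.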

How the data were processed

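Droplet libraries of dissociated embryonic pancreas were sequenced, and the authors aligned reads to mm10 and made the UMI counts per gene and barcode with Cell Ranger 1.1 (version 1 libraries) and 2.1 (version 2 and Fev-Cre libraries), per the processing notes and methods. The deposited counts were used without rescaling. Of the Fev-Cre cells, the matrix aligned with the reporter sequences was used. The 3 members and all lists were chosen with earlier results of these data known. Barcodes with under 200 genes and cells with markers of more than 1 compartment (0.390% to 5.06% per library) were removed. Doublets of endocrine cells of different classes cannot be marked in this way. Within each kit and for the Fev-Cre library, cells were clustered with igraph 0.11.9 and leidenalg 0.10.2 (2000 variable genes, 20 components, resolution 1), and the members were left out. A cluster was named from at least 3 markers, and the rules that left clusters unnamed or out of the endocrine cells were set after clusters were seen. Named genes were the members, the hormone genes, the 18 listed genes and the 5 genes most like each member. UMIs were summed per library and class of at least 20 cells and tested with edgeR 4.0.16 (R 4.3.3; quasi-likelihood test, TMM, Benjamini-Hochberg adjustment over all genes, library block between classes, kit term between stages). The code was tested on simulated data. CPM is UMIs per 1000000 UMIs of the class. Odds ratios had 0.5 added to each cell of the 2 by 2 table, and limits at 0 rest on 3 counts. All intervals and limits cover counting error only. A block on the batch number in the labels, which marks libraries collected together for version 1 only, was added between stages after the data were seen. DESeq2 1.42.0, other filters, clusterings, doublet removal by Scrublet in scanpy 1.11.5 and leaving out each library were alternatives. The planned protein sequences are not printed, since no protein table was used here. The library block is a measured pairing: sums of 2 classes from 1 library deviated together in 69 of 69 pairs with r over 0.1 (median 0.439), against 136 of 460 pairs from different libraries (median -0.090).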

Additional observations from a re-analysis of the deposited data

Results flagged for a closer look

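The difference between alpha-like and beta-like cells was itself compared between stages and kits in the 5 Swiss Webster libraries of E14.5 and E17.5, a test added after the data were seen. From E14.5 to E17.5 the alpha-like over beta-like log2 fold change of Pyy rose by 1.20 ± 0.27 (SE, edgeR, adjusted p = 0.0215), where 1.12% of genes were called, and the call was lost without the second E14.5 version 1 library (0.96), the E14.5 version 2 library (1.13) or the E17.5 version 2 library (0.91). For Npy the same difference was -6.10 (adjusted p = 0.00532), lost without the first E14.5 version 1 library (-5.57) or the E17.5 version 2 library (-9.46). Between kits, version 2 minus version 1, Npy differed by -5.89 (adjusted p = 0.0109), where 0.0439% of genes were called, and the call was lost without either E14.5 version 1 library (-5.69 and -5.06). Without the E17.5 version 1 library, whose alpha-like sum held 0 Npy UMIs, both stayed called, at -6.10 between stages (adjusted p = 0.0169) and -6.56 between kits (adjusted p = 4.6e-09). These are the version 1 libraries in which 2 and 4 alpha-like cells held all Npy UMIs of the class.

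Outside the endocrine cells, Npy was also found in the clusters of neural crest, glia and neurons, at 57.6 ± 33.2 CPM (SD, n = 8), against 3.28 ± 3.63 CPM in mesenchymal cells. It was higher there in 8 of 8 libraries, and 314 of 1641 cells held a UMI.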

How the results depend on the processing

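Of 692 repeats of a test of 1 member under an alternative, 584 kept direction and call, 48 lost a call, 41 gained one and 19 turned sign; the cause was not tested. The samples were paired by library between classes, and without the replicate block the log2 fold change of alpha-like from beta-like cells was 1.80 for Pyy and 2.12 for Ppy, neither called; no other class call but that of Ppy between beta-like and Fev+-like cells was lost without it. Between stages a replicate block on the batch number was added after the data were seen: it left 0 genes of the 3 called in alpha-like cells at E12.5, gave 1 in beta-like and 1 in Fev+-like cells at E17.5, and kept the count elsewhere, with Ppy in place of Npy in alpha-like cells at E17.5. In alpha-like against beta-like cells all 3 genes stayed called without any 1 library, at 1.75 to 2.18 (Pyy), 1.96 to 2.76 (Ppy) and -5.41 to -3.78 (Npy).

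The number of the 3 genes called was 3 or, with Npy lost, 2 under all alternatives for alpha-like against Fev+-like and against Ngn3+-like cells, and moved as follows elsewhere. Alpha-like against delta-like (0): 1 with DESeq2 and at resolution 2, 2 without a count filter, in a fit over the 2 classes alone and with version 1 alone. Alpha-like against epsilon-like (0): 1 with DESeq2 and at resolution 0.5, 2 with version 2 alone, 3 without a count filter and with at least 10 cells, 0 to 2 with 1 library left out. In both, the call with DESeq2 and 1 of those without a count filter are Npy, as is 1 with at least 10 cells, on delta-like sums of 0 to 14 and epsilon-like sums of 0 to 7 UMIs, and are no result. Beta-like against Fev+-like (2): 1 with DESeq2, without the replicate block, with version 2 alone, with the members in the clustering and with Scrublet doublets removed, 1 to 2 with 1 library left out. Alpha-like E12.5 against E14.5 (1): 0 with DESeq2, without the kit term and with no doublets removed, 0 to 1 with 1 library left out. Alpha-like E17.5 against E14.5 (1): 0 with DESeq2, without the kit term and with no doublets removed, 2 without a count filter, 0 to 2 with 1 library left out. Beta-like E17.5 against E14.5 (0): 0 to 1 with 1 library left out. Fev+-like E12.5 against E14.5 (1): 2 without a count filter and with no doublets removed, 0 without the kit term, 0 to 2 with 1 library left out. Fev+-like E17.5 against E14.5 (0): 1 without a count filter and with Scrublet doublets removed.

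Signs that turned were all of uncalled differences. Pyy, beta-like against Fev+-like, gave -0.34 with version 2 alone. Pyy, Fev+-like E12.5 against E14.5, gave 0.028 with DESeq2, 0.0026 with Fev-Cre as a batch, 0.016 with no doublets removed, and -0.92 to 0.78 with 1 library left out. Ppy, beta-like E17.5 against E14.5, gave 0.14 without the kit term, 0.51 with the batch as replicate block and -0.71 to 0.48 with 1 library left out. With 1 library left out, Npy in alpha-like cells at E12.5 ran from -4.89 (called, without E14.5 version 2) to 1.39 (without E12.5 version 1), Pyy in alpha-like cells at E17.5 from -0.75 to 0.32, Pyy in Fev+-like cells at E17.5 from -1.09 to 0.31, and the kit difference of Pyy from -0.49 to 1.14.

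Detection of Pyy in alpha-like cells was 91.6% at 1000 UMIs, 92.3% when 2 UMIs were asked for and 87.2% when 5 were. With 5 UMIs asked for, Pyy was in 95.6% of delta-like cells, Ppy in 21.4% of delta-like and 9.15% of alpha-like cells (17.2% with 2), and Npy in 19.8% of beta-like cells. The median log2 odds ratio of Pyy with Gcg was 4.58 with 2 UMIs and 4.57 with 5, that of Npy with Ins1 7.28 and 7.69. With 5 UMIs it was 4.20 for Pyy with Sst, -1.98 for Npy with Gcg and -0.095 for Ppy with Ins1, which turned sign. Of the 5 genes most like each member, 2 remained for Pyy with Spearman's rho and 2 after centring within libraries, 1 for Ppy after centring, and 1 for Npy with Spearman's rho and 3 with a pseudocount of 1.

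Counts over all genes moved more: 627 genes were called between alpha-like and beta-like cells and 375 to 1343 under alternatives, 456 (71 to 798) against delta-like, 343 (115 to 755) against epsilon-like, 580 (278 to 1292) against Fev+-like and 1729 (1508 to 3518) against Ngn3+-like cells. Beta-like cells gave 676 (514 to 1334) against Fev+-like and 663 (103 to 1157) against delta-like cells. By stage 222 (22 to 353) and 55 (1 to 118) were called in alpha-like, 30 (0 to 203) in beta-like, and 24 (0 to 145) and 28 (2 to 118) in Fev+-like cells. Delta-like and epsilon-like values rest on few cells, and each stage on 2 or 3 Swiss Webster libraries.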

Other observations

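A Fev-Cre cluster of 215 endocrine cells that stayed unnamed held 14258 CPM of Pyy and 413 CPM of Ppy, and Pyy led in 124 of its 162 cells with at least 10 UMIs of the hormones. The cluster comes from 1 library and was given no test. In the cycling endocrine cells of the E17.5 version 2 library Npy stood at 2144 CPM beside 150045 CPM of Ins1, against 27.0 and 6.41 CPM of Npy in the cycling cells of the other libraries. The wells of the E17.5 version 2 suspension gave 57152 and 56951 CPM of Pyy in delta-like cells, but 20099 and 14260 CPM in alpha-like cells.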
